A study of Mus musculus with 2 samples.

Results

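The genes of mouse whose symbol begins with Kcn, which encode potassium channels and some of their companion proteins, were examined in embryonic ureters with and without a conditional deletion of the transcription factor gene Gata2. Members were taken by symbol from the non-control probes of 2 dye-swapped Agilent arrays that each carry 2 colours. That gave 95 genes with 137 probes among 31870 named genes on the array. A gene was called expressed and tested if a probe was well above background on both arrays in either group, which 65 of the 95 Kcn genes were, against 20506 of all genes. The symbol also takes in Kcnq1ot1, a long non-coding RNA that runs antisense within Kcnq1, and Kcnrg, a gene for a potassium channel regulator.

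The tissue was ureter of NMRI embryos at E14.5. The control RNA came from Tbx18(+/+);Gata2(fl/?) embryos, in which neither Tbx18 allele makes Cre and the other Gata2 allele is given by the label as unknown. The RNA labelled Gata2cKO came from Tbx18(cre/+);Gata2(fl/fl) embryos, in which 1 Tbx18 allele drives Cre recombinase and both Gata2 alleles are flanked by loxP sites. Cre and the modified Tbx18 allele were thus in the Gata2cKO embryos alone, and their effects cannot be told apart from those of Gata2 loss. Array 1 held female RNA with the control in Alexa Fluor 555 and the Gata2cKO in 647, and array 2 held male RNA with the dyes exchanged. Sex and dye orientation therefore cannot be told apart. How many embryos went into an RNA is not given in the labels, so p-values do not measure the spread between embryos. They rest on a gene's spread between these 2 arrays, moderated by that spread pooled over all genes.

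Potassium channels let potassium leave the cell, which pulls the membrane potential down and limits calcium entry and contraction in smooth muscle. Voltage-gated channels (Kcna to Kcnd, Kcnh, Kcnq) open on depolarization, large-conductance BK channels (Kcnma1 with beta subunits of the Kcnmb genes) open on calcium and depolarization, inward rectifiers (Kcnj) hold the resting potential, and leak channels (Kcnk) set it. Kcnip genes encode calcium-binding proteins that attach to Kcnd channels, which carry a fast, transient current, and alter their traffic to the membrane and their gating. In the adult ureter such currents shape the pacemaker and muscle action potentials of peristalsis. At the stage studied the mesenchyme around the urothelium is beginning to form smooth muscle.

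The 6 genes whose values are given first were each represented by their brightest probe, of 60 bases. Their first 30 bases are shown, 5′ to 3′, because the values of these genes rest on hybridization to these probes, and positions are on mm9. Exons and UTRs were not assigned, since an annotation of that build was not used here.
Kcnip1 probe (chr11:33530511-33530570, minus strand): tgttccaaaatgtcatgtaactgaggacac
Kcnd3 probe (chr3:105476854-105476913, plus strand): tactgagtcctgtgccactgctgtacctga
Kcnma1 probe (chr14:24118701-24118760, minus strand): agattccttgatgcacatttctcttctttc
Kcnk2 probe (chr1:191032758-191032817, minus strand): tttttaaaggcagaagaagacatgagcaca
Kcnq3 probe (chr15:65826897-65826956, minus strand): aactggagcggtctccaagtggcttcagca
Kcnk3 probe (chr5:30927090-30927149, plus strand): ctgggaaatccttaggtggaaggaatctgg

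Kcnip1 was the only Kcn gene that passed an adjusted p of 0.05 (limma, Benjamini-Hochberg over all 20506 genes), and it rose 2.53-fold in the RNA labelled Gata2cKO. This is 1 of 65 tested members (1.54%), against 0.0878% of all genes tested, in which 9 genes passed as higher and 9 as lower (0.0439% each). A further 3 Kcn genes were at least 1.5-fold higher on both arrays without passing the test, namely Kcnma1, Kcnd3 and Kcnk2. With Kcnip1 that makes 4 of 65 (6.15%), against 0.273% of all genes tested, and 0 Kcn genes were at least 1.5-fold lower on both arrays, against 0.439% of all genes. As a group the Kcn genes lay near 0: the median log2 ratio, Gata2cKO over control, was 0.0118 over the 65 genes (0.00785 on array 1 and -0.0263 on array 2) and 0.00284 over all genes tested. Both arrays gave 21 of them as higher and 21 as lower (32.3% each), where the shares over all genes were 27.0% and 26.2%. An unadjusted p under 0.05 was found for 9 Kcn genes as higher (13.8%) and 4 as lower (6.15%), against 3.75% and 3.41% of all genes. Both Gata2cKO signals lay above both control signals for 17 Kcn genes (26.2%) and below them for 13, against 19.5% and 18.9% of all genes. Kcnj12 is among these 13 and among the 4 with such a p as lower. It entered the test through the control alone, since its Gata2cKO signal was well above background on 1 array only.

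Kcnip1 encodes KChIP1, a calcium sensor that binds Kv4 channels. Its normalized log2 signal, after scaling within and between the arrays, was 8.65 in the control and 10.11 in the Gata2cKO RNA on array 1, and 8.71 and 9.92 on array 2. Both Gata2cKO values lay above both control values. The log2 ratios were 1.46 and 1.22, a mean of 1.34 ± 0.168 (SD, n = 2; 95% confidence interval 1.05 to 1.62; limma adjusted p = 0.0490). The call was lost with median centring of each array in place of loess (log2 ratio 1.32, adjusted p = 0.772), where 0 of all genes passed in limma and 492 had an unadjusted p under 0.05. It was also lost when limma was run on the authors' deposited table, in which 0 genes passed and 972 had an unadjusted p under 0.05 (log2 ratio of Kcnip1 1.48, adjusted p = 0.189). The adjusted p ranged from 2.06e-05 to 0.772 over the alternatives. The probe was printed in 10 spots on each array, which were averaged. In RefSeq the gene for the BK beta subunit, Kcnmb1, lies inside Kcnip1, and its probe gave log2 ratios of 0.09 and -0.51, of opposite sign on the arrays.

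Kcnd3 encodes Kv4.3, a pore subunit of the transient current to which KChIP proteins attach. Its log2 signal was 12.51 in the control and 13.37 in the Gata2cKO RNA on array 1, and 12.54 and 13.69 on array 2. The groups did not overlap, and the ratios of 0.87 and 1.15 gave a mean of 1.01 ± 0.199 (SD, n = 2; 2.01-fold; limma adjusted p = 0.0766). A second Kcnd3 probe, upstream on the same strand, was not well above background in either group and gave 0.11 and 0.25. The other genes of the Kv4 complex had small ratios. The pore genes Kcnd1 and Kcnd2 were at -0.05 and -0.03, and the further KChIP genes Kcnip3 and Kcnip4 at 0.09 and 0.16. Kcnip2 was not well above background, and the accessory peptidase-like genes Dpp6 and Dpp10 had ratios of 0.11 and -0.01.

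Kcnma1, the gene of the BK pore, had a log2 signal of 9.65 in the control and 10.96 in the Gata2cKO RNA on array 1, and of 9.92 and 10.81 on array 2. The ratios were 1.31 and 0.89, a mean of 1.10 ± 0.296 (SD, n = 2; 2.14-fold; limma adjusted p = 0.0863). Of the 4 genes it was measured by the most probes, and all 3 of them were well above background and higher on both arrays. The other 2 gave 1.05 and 0.64, and 1.06 and 0.70. The BK beta subunit genes did not share this size or sign: Kcnmb4 had ratios of -0.29 and -0.22 (mean -0.26 ± 0.0519, SD, n = 2; limma adjusted p = 0.701) and the mean for Kcnmb1 was -0.21. Kcnmb2 and Kcnmb3 were not well above background. Lrrc55, whose protein is an auxiliary gamma subunit of BK channels, had ratios of 0.49 and 0.38 (mean 0.44; limma adjusted p = 0.366). Its log2 signal in the control was 7.61 and 7.75, and the authors' deposited table gave 0.49 and -0.31 on the arrays. Lrrc38, for a further gamma subunit, had ratios of -0.07 and -0.06, and Lrrc26 and Lrrc52 were not tested.

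Kcnk2 encodes TREK1, a leak channel opened by stretch and lipids that is found in smooth muscle. Its log2 signal was 10.90 in the control and 11.71 in the Gata2cKO RNA on array 1, and 11.02 and 11.63 on array 2. The groups did not overlap, with ratios of 0.80 and 0.61 (mean 0.71 ± 0.133, SD, n = 2; 1.63-fold; limma adjusted p = 0.162). Just short of 1.5-fold on array 2 lay Kcnq3, which encodes a subunit of the M current of neurons. In the control its signal was 8.04 and 7.98, and in the Gata2cKO RNA 8.71 and 8.51, on the arrays in turn, with ratios of 0.66 and 0.53 (mean 0.60 ± 0.0931, SD, n = 2; limma adjusted p = 0.202).

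The largest ratio in the other direction was that of Kcnk3, which encodes TASK1, a leak channel closed by acid. Its log2 signal was 9.26 in the control and 8.88 in the Gata2cKO RNA on array 1, and 9.53 and 8.79 on array 2. Both Gata2cKO values lay below both control values, and the ratios of -0.38 and -0.74 gave a mean of -0.56 ± 0.256 (SD, n = 2; 1.47-fold lower; limma adjusted p = 0.331). Kcnk2 and Kcnk3 thus lay at opposite ends of the same subfamily, although neither passed the test. For Kcnk3 the authors' deposited table gave -0.46 on array 1 and 0.02 on array 2.

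**Figure D1:**
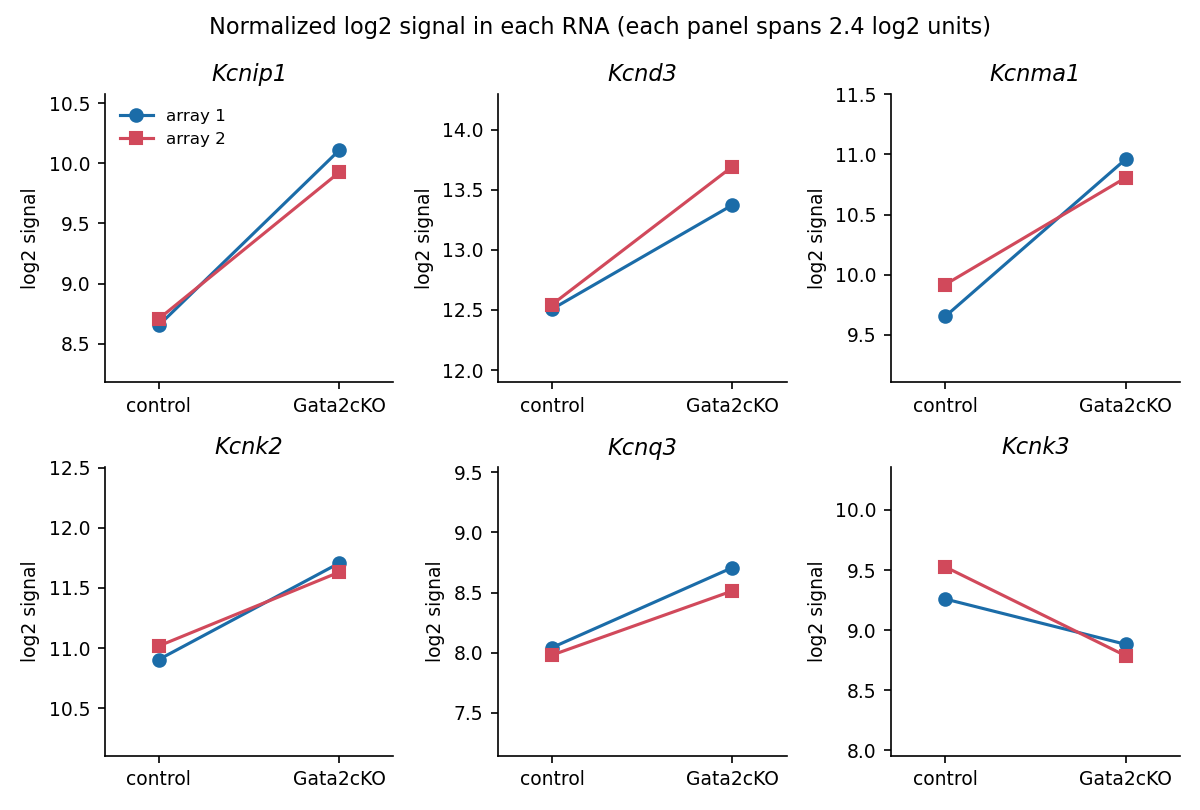
Normalized log2 signal (y axis) of 6 Kcn genes in the control and the Gata2cKO RNA (x axis) of array 1 (circles) and array 2 (squares), with a line joining the RNAs of an array. Each panel spans the same width in log2 units but is centred on its own gene, so heights do not compare between panels. The genes were drawn for their large ratios of 1 sign, so the separation of the points, with Gata2cKO above control in 5 panels and below it for Kcnk3, follows from that choice.

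**Figure D2:**
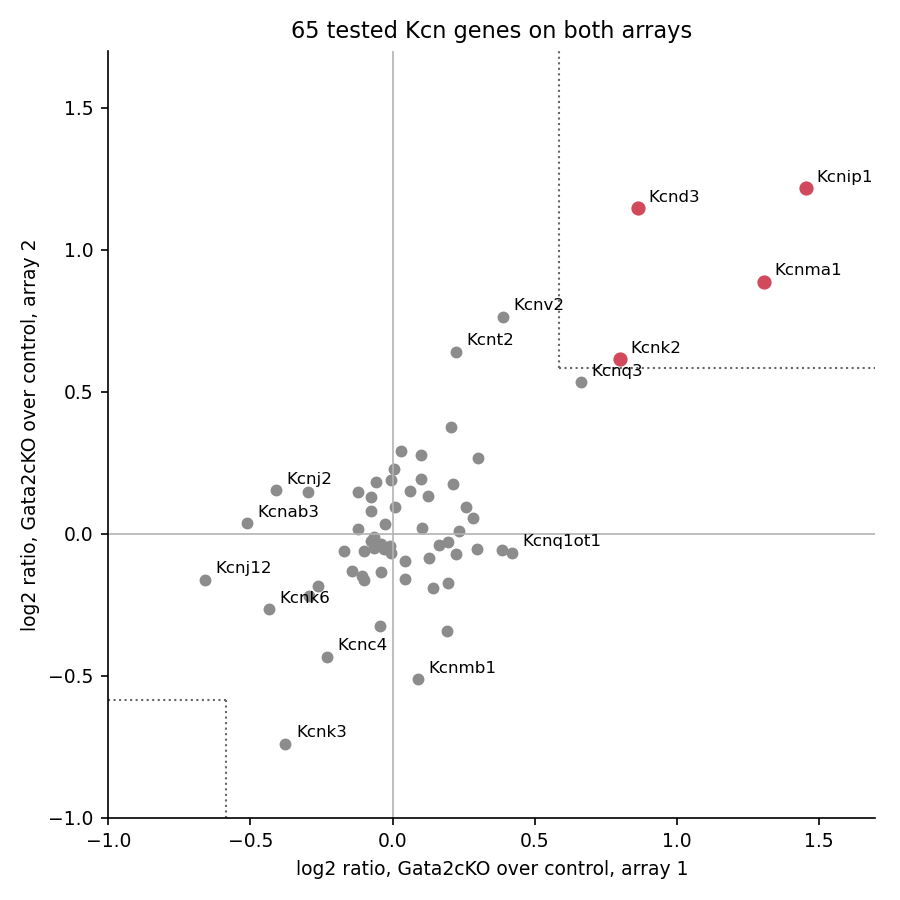
Log2 ratio, Gata2cKO over control, on array 1 (x axis) and array 2 (y axis) for the 65 tested Kcn genes, with dotted lines at 1.5-fold. Kcnip1, Kcnma1, Kcnd3 and Kcnk2 (red) lie past 1.5-fold on both arrays, and the corner for lower genes is empty.

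Across the 65 genes the ratios on array 1 and array 2 had a Pearson r of 0.72 and a Spearman rho of 0.44, as a description over genes that share 2 arrays. Without the 4 genes past 1.5-fold, r was 0.42 over 61 genes. Over all 20506 genes r was 0.06. That value combines r = -0.57 in the brightest 25% of genes with r = 0.39 in the 15379 others, and none of the 65 Kcn genes was among those brightest 25%. Among the others, 0.117% of genes passed the test, 0.351% were at least 1.5-fold higher and 0.572% lower on both arrays, and 28.8% were higher and 28.1% lower on both by any size.

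Among the voltage-gated Kcna to Kcnd genes, 13 of 17 were tested, with a median of -0.05. Kcnd3 stood apart at the top, and the next highest of the group was at 0.18. At the bottom, Kcnc4, which encodes a fast channel of the Kv3 class, had ratios of -0.23 and -0.43 (mean -0.33; limma adjusted p = 0.600), and the mean in the authors' deposited table was 0.02. Kcna3 and Kcna5, for channels of lymphocytes and of vascular muscle among others, were at -0.13 and -0.14 with the same sign on both arrays. Their means in the authors' deposited table had the other sign, at 0.74 and 0.18. Kcna1, Kcna2, Kcna10 and Kcnb2 were not well above background. The signs for Kcna7 and Kcnd1 depended on the probe: a second probe of Kcna7 gave 0.05 and -0.06, where the one used gave 0.00 and 0.23, and a second of Kcnd1 gave 0.05 and 0.06, where the one used gave -0.08 and -0.03.

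The inward rectifiers had the smallest tested share of the larger groups, with 8 of 15 genes well above background and a median of 0.08. Kcnj8, the pore gene of the ATP-sensitive channel of vascular muscle, had ratios of 0.21 and 0.38 (mean 0.29; limma adjusted p = 0.665). Its partner Abcc9, the sulfonylurea receptor of muscle, was at 0.11 and 0.37, and the receptor gene Abcc8 at -0.14 and -0.15. Kcnj15, found in kidney epithelium, had ratios of 0.30 and 0.27 (mean 0.28; limma adjusted p = 0.654). Kcnj4 was at 0.13 on both arrays, and was well above background in the control on 1 of the arrays only. Kcnj12, for a classical inward rectifier of muscle, had ratios of -0.66 and -0.16 (mean -0.41; limma adjusted p = 0.636), and its Gata2cKO signal was well above background on 1 array only. In the authors' deposited table its mean was 0.03. The genes of the G protein-gated channels (Kcnj3, Kcnj5, Kcnj6 and Kcnj9) and those of the renal ROMK channel (Kcnj1), Kcnj11 and Kcnj13 were not well above background.

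Of the leak channel genes, 11 of 14 were tested, with a median of -0.05. Kcnk6 had ratios of -0.43 and -0.27 (mean -0.35 ± 0.119, SD, n = 2; limma adjusted p = 0.545). Kcnk16 was at -0.10 and -0.06, and Kcnk1, whose gene product is found in many epithelia, was at 0.16 and -0.04. For Kcnk4 the kept probes differed in sign, with -0.30 and -0.02 against 0.13 and -0.09 for the brighter one.

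The calcium-activated channels of the Kcnm and Kcnn genes had 6 of 9 members tested and a median of -0.04, with Kcnma1 far above the rest. Kcnn2, for a small-conductance channel, gave -0.03 and -0.05 over its 10 spots on each array, and Kcnn4, for the intermediate-conductance channel, -0.01 and -0.07. Kcnn3 was at -0.03 and 0.03, and its dimmer probe at -0.11 and -0.02. The 3 tested Kcnip genes had a median of 0.16, which is the value of Kcnip4, and of 0.03 on array 1 and 0.29 on array 2. Kcnip3 gave -0.01 and 0.19 by the probe used and 0.13 and -0.17 by a dimmer one.

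All 5 Kcnq genes were tested, with a median of 0.06. Kcnq5 had a mean ratio of 0.08. Kcnq1 (0.11 and 0.02) and its antisense RNA Kcnq1ot1 were measured by separate probes. The brighter probe of Kcnq1ot1 gave 0.42 and -0.07, and the other 0.36 and 0.51. The Kcnh genes, for channels of the EAG, ERG and ELK classes, had 6 of 8 members tested, a median of 0.06 and a highest value of 0.16. Among those with the same sign on both arrays, Kcnh7 had 0.10 and 0.19, Kcnh8 0.01 and 0.09, and Kcnh4 -0.06 and -0.01. In the authors' deposited table the means of Kcnh7 and Kcnh8 were -0.13 and -0.49, and that of Kcnh4 was -0.03.

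Kcnv2, for a silent subunit that joins Kv2 channels, had signals of 8.61 and 9.0 on array 1 and 8.44 and 9.21 on array 2, control first, and ratios of 0.39 and 0.76 (mean 0.58 ± 0.265, SD, n = 2; limma adjusted p = 0.316). Kcnv1 gave 0.21 and 0.18, Kcns3 0.10 and 0.28, and Kcns1 -0.11 and -0.15. Kcnt2, for a sodium-activated channel, had ratios of 0.23 and 0.64 (mean 0.43 ± 0.294, SD, n = 2; limma adjusted p = 0.545), and the sperm channel gene Kcnu1 0.06 and 0.15. Of the single-span Kcne subunits, Kcne1l was at -0.04 and -0.14 and Kcne3 at -0.04 and -0.33. Kcne4 was at 0.23 and 0.01, but its dimmer probe gave -0.49 and 0.31, and its mean in the authors' deposited table was -0.11. Kcnab1, for a cytoplasmic beta subunit, was at 0.20 and -0.17. Kcnrg was at -0.12 and 0.15 by the probe used and at -0.17 and 0.12 by the other. None of the 4 Kcng genes, nor Kcnf1, all of them for silent subunits, was well above background.

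**Figure D3:**
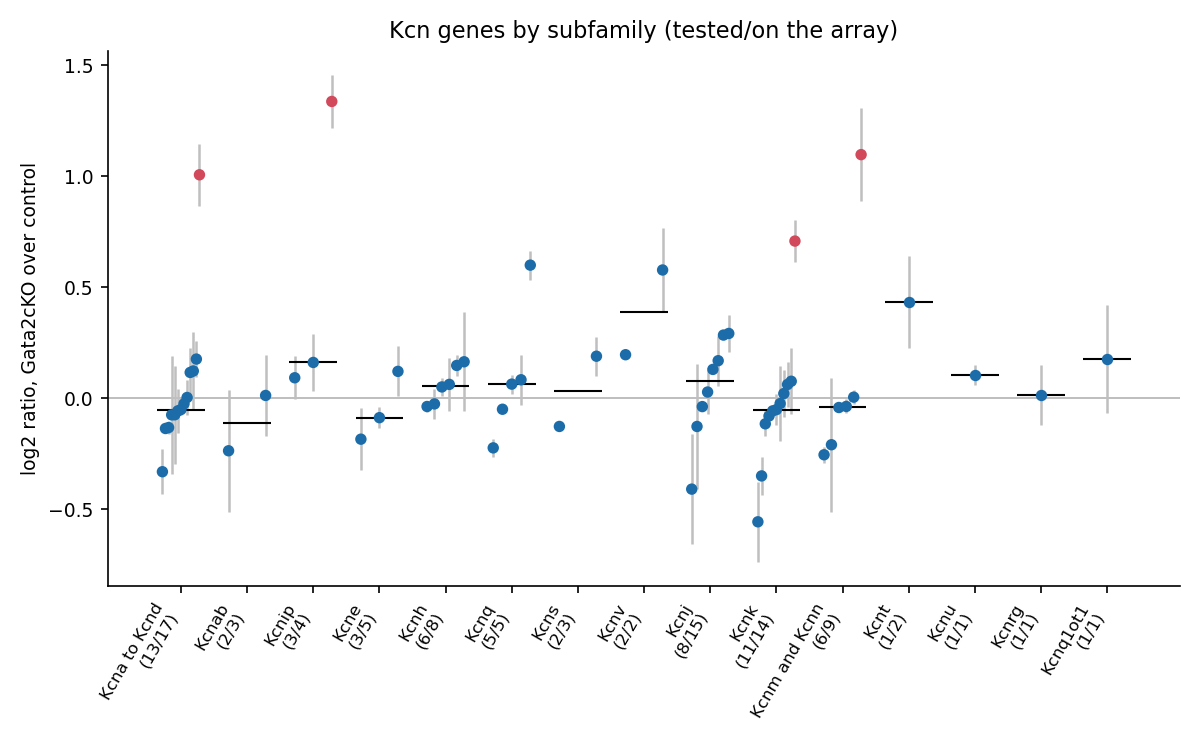
Mean log2 ratio, Gata2cKO over control (y axis), of each tested Kcn gene by subfamily (x axis, with tested and total genes on the array); grey bars span the 2 array values, black bars are medians and red marks genes at least 1.5-fold on both arrays. Kcnip1, Kcnma1, Kcnd3 and Kcnk2 belong to 4 different groups, and the medians of the 5 groups compared lie between -0.05 and 0.16. Kcnf and Kcng, with no tested gene, are not drawn.

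**Figure D4:**
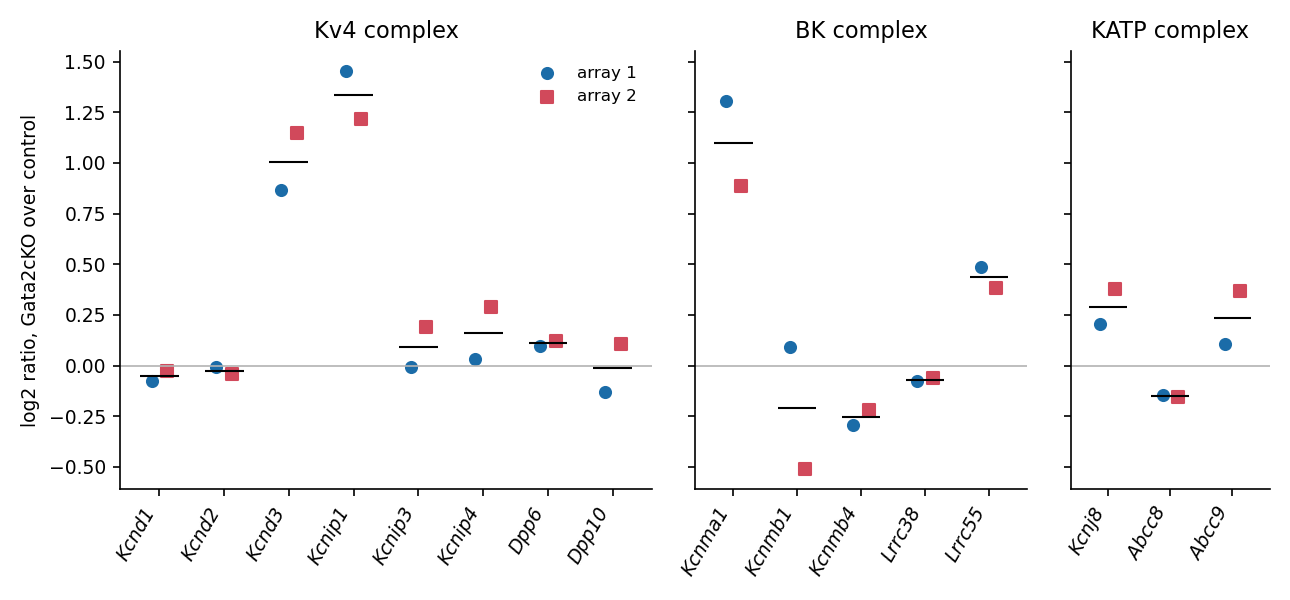
Log2 ratio, Gata2cKO over control (y axis), on array 1 (circles) and array 2 (squares) for genes of the Kv4, BK and ATP-sensitive channel complexes (x axis), with black bars at the means. Kcnd3 and Kcnip1 are high in the first panel, Kcnma1 in the second, and the other subunits lie nearer to 0 on each array, the farthest being Kcnmb1 at -0.51 on array 2.

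Among 27 partner genes not named Kcn (auxiliary subunits, pacemaker channels, sodium pumps, cation-chloride transporters and scaffolds), 23 were tested. Of these, 9 were higher and 3 lower on both arrays, where the shares over all genes were 27.0% and 26.2%. By limma 0 passed an adjusted p of 0.05, while 2 had an unadjusted p under 0.05, both as higher. Over all genes 3.75% had such a p as higher and 3.41% as lower. Their median was 0.04. Lrrc55 and Slc12a2, the gene of the sodium-potassium-chloride cotransporter (0.27 and 0.44; mean 0.35; limma adjusted p = 0.545), had the largest ratios.

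Lists of Kcn genes grouped by tissue had medians near that of all genes. They were drawn up from general knowledge with earlier results of these data known, and these data do not show which cells express the genes. The smooth muscle list held Kcnmb4, and the neuronal list held Kcnd2 and Kcnip4. Kcnip1, Kcnd3 and Kcnk2 were on none of the lists. The only Kcn gene that passed the test, Kcnip1, thus could not count in them. Over all genes, 27.0% were higher and 26.2% lower on both arrays. The smooth muscle list (12 of 12 tested) had 3 genes higher and 4 lower on both arrays and a median of -0.06, between Kcnk3 and Kcnma1 at its ends. The neuronal list (11 of 19 tested) had 4 higher and 3 lower and a median of 0.00267 (0.04 on array 1 and -0.04 on array 2), and the epithelial and renal list (9 of 12 tested) 2 higher and 4 lower and a median of 0.03. In none of these lists did a gene pass an adjusted p of 0.05 by limma, and their unadjusted p was under 0.05 for 3, 2 and 2 genes in either direction, where 3.75% of all genes had such a p as higher and 3.41% as lower.

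Markers of cell types moved beside these values, and their part in them was not tested. Over all genes, 27.0% were higher and 26.2% lower on both arrays, and 3.41% had an unadjusted p under 0.05 as lower. All 8 smooth muscle markers were lower on both arrays and had -0.77 as their median. By limma 0 of them passed an adjusted p of 0.05 and 6 had an unadjusted p under 0.05. Their summed linear signal was 76561 and 80887 in the control and 58308 and 55087 in the Gata2cKO RNA. That is 0.762 and 0.681 of the control on the arrays, where the ratio for the smooth muscle potassium channel list was 1.0 and 0.998. The sum of that channel list held genes of opposite direction: Kcnma1 rose, while Kcnmb4, its brightest member, had ratios of -0.29 and -0.22. Myh11, the smooth muscle myosin gene, had ratios of -1.05 and -1.21. At the ends of the channel list, Kcnma1 had 1.31 and 0.89 and Kcnk3 -0.38 and -0.74. Of the 12 genes on that list, 3 were higher and 4 lower on both arrays. Which cells held these RNAs was not tested. Of 16 neuron and glia markers, 14 were lower on both arrays and 1 (Prph) passed the test as lower, against 0.0439% of all genes. Their median was -0.69, and their summed signal was 77533 and 67208 in the control and 50360 and 51991 in the Gata2cKO RNA (0.650 and 0.774 of the control). In whole ureters fewer cells of a type and less RNA per cell cannot be told apart. Urothelium markers had a median of 0.17 (0.35 on array 1 and 0.04 on array 2) with 5 of 10 higher on both arrays, and mesenchyme markers one of -0.11 (-0.17 and -0.00262). The median was -0.37 for macrophage markers (-0.39 on both arrays) and -0.79 for skeletal muscle markers (-0.41 and -1.05). It was -0.27 for erythroid (-0.14 and -0.32), -0.10 for endothelium (-0.19 and -0.08) and 0.14 for kidney markers (0.07 and 0.24). Every smooth muscle, urothelium and mesenchyme marker on the lists was well above background and tested, as was each marker of the other types except Nphs1 of kidney.

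**Figure D5:**
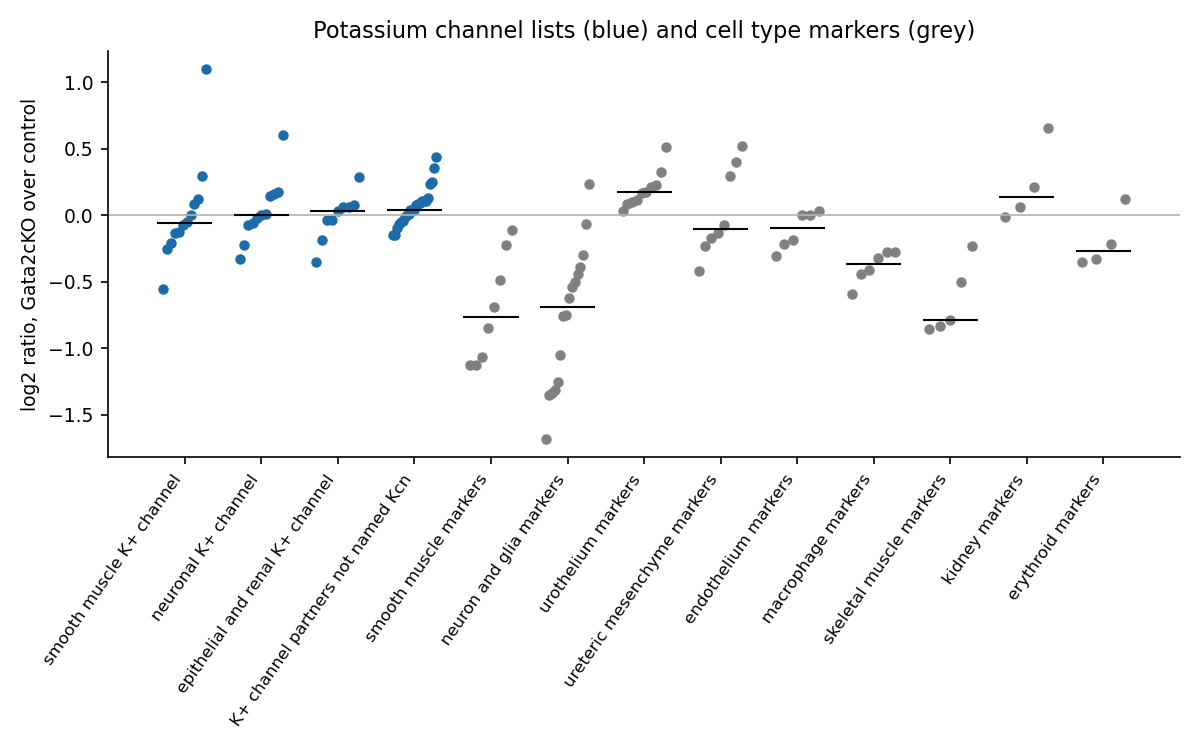
Mean log2 ratio, Gata2cKO over control (y axis), of each tested gene in the potassium channel lists (blue) and cell type marker lists (grey) (x axis), with black bars at the medians. The smooth muscle, neuron and glia, macrophage and skeletal muscle markers have medians of -0.77, -0.69, -0.37 and -0.79, and the 4 potassium channel lists have medians between -0.06 and 0.04. Kcnip1, Kcnd3 and Kcnk2 are on none of these 4 lists.

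Gata2 itself was not lower: its single probe gave log2 ratios of 0.33 and 0.54 (mean 0.44 ± 0.153, SD, n = 2; limma adjusted p = 0.409). Which part of Gata2 is removed is not stated, and a probe outside it checks nothing. Directions here rest on the dyes in the labels.

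The 250 bases before each annotated start were searched for the GATA factor letters AGATAA, for AGATAG, for TGATAA and for TGATAG on both strands, with promoters of RefSeq on GRCm38.p6. These letters were in 26.54% of all 32851 promoters, in 20.9% of the 67 promoters of the 48 tested Kcn genes that had an entry, and in 1 of 9 promoters of Kcnip1, Kcnma1, Kcnd3 and Kcnk2. The match was TGATAA at 218 bases before a start of Kcnk2, shown in capitals, and the single Kcnd3 promoter had none. The serum response element CArG was in 1.47% of all promoters and in 0 of the tested Kcn promoters. A gene with several annotated starts was counted once for each. The median GC content was 52.4% over all promoters, 58.8% over those of tested Kcn genes and 62.8% over the 9. Its part in the shares of GATA and CArG letters was not tested. A match is a description of letters and no evidence of binding.
Kcnk2 (chr1:189402274-189402523, minus strand, GRCm38.p6): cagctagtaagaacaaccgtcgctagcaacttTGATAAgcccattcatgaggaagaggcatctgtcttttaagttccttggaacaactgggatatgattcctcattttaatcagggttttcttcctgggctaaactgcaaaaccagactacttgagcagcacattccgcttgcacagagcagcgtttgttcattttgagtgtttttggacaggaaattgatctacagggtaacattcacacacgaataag
Kcnd3 (chr3:105451640-105451889, plus strand, GRCm38.p6): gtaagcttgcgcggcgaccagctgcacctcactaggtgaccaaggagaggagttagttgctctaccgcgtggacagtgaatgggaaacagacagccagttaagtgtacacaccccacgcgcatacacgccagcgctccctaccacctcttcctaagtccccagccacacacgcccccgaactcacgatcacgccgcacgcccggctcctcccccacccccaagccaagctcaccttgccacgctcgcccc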

How the data were processed

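Total RNA of E14.5 ureters was extracted with peqGOLD RNAPure, amplified and labelled through amino allyl groups, per the labels' protocols. Per the file headers and the submitters' processing notes, the authors read array design 026655 with Agilent Feature Extraction 10.7.3.1 (protocol GE2_107_Sep09). The deposited scanner files hold each spot's mean intensity and the median around it, linear and not normalized. Per the file headers they also hold processed signals and their log10 ratio of red over green. The authors' deposited value table reads as a signed fold change, a score with sizes of 1 or more. How it was made, its scale, centring and direction are not given in the sources used here. Its columns had a median of 1 each and correlated at 0.443 and 0.376 with the ratios used here, so it served only as an alternative, as log2 of the size with its sign.

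Background was corrected by normexp (offset 50), within-array loess (span 0.3; weight 0 for control spots and flagged outliers) normalized the ratios, and array 2 was turned. Spots of a probe were averaged. A probe was kept if well above background on both arrays in either group, and the brightest kept probe stood for its gene. RefSeq accessions named 26412 probes and 13017 kept the file's name. Signals per RNA are log2 values after loess and Aquantile. Loess assumes that most genes do not change. The log2 ratios computed from the deposited intensity were tested against 0 in limma 3.58.1 (R 4.3.3) with lmFit and eBayes, two-sided, and Benjamini-Hochberg adjustment. A gene had 1 residual degree of freedom, and the prior added 4.68 with an SD of 0.163, so the number of arrays limits the precision. Both RNAs of a replicate share an array, and no batch could be fitted. The functions were tested on simulated arrays. The other software was jsonlite 2.0.0, Python 3.11.15, pandas 2.3.3 and matplotlib 3.10.9.

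The members, lists and rules were chosen with earlier results of these data known. Values are given for each Kcn gene that passed, each that both arrays give as at least 1.5-fold in 1 direction, up to 4 members a subfamily with the largest ratio of the same sign, its brightest member, and genes whose kept probes differ in sign. Kcnd2, Kcnmb1, Dpp6, Dpp10, Abcc8, Abcc9 and Myh11 were added after their values were seen, as were Kcnq5 and Lrrc38. The values of some members are not reported here. From the partner list the 2 genes with the largest ratios are named, and from the cell type markers Prph, which passed. Otherwise the lists are described by counts and medians, and some by summed signals. Alternatives changed the background correction, offset, normalization, filter, probe rule, variance model, value table and array.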

Additional observations from a re-analysis of the deposited data

How the results depend on the processing

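The 18 genes that passed over the whole array became 173 with the scanner software's processed signals, 41 with a normexp offset of 16, 54 with no filter on dim probes, 35 with both channels well above background, 376 with a trended and robust variance, and 0 with median centring or in the authors' deposited table (limma; unadjusted p under 0.05 for 492 and 972 genes). The Kcn genes that passed as higher were 4 with processed signals (Kcnd3, Kcnip1, Kcnma1 and Kcnq3), 6 with the trended and robust variance, which also passed 1 as lower (Kcnk3), and 0 with median centring or in the deposited table (unadjusted p under 0.05 for 7 and 12 Kcn genes). By the deposited table there were 8 Kcn genes at least 1.5-fold higher and 1 (Kcnn4) lower on both arrays, against 1.02% and 0.897% of all genes in it. Kcnk3 averaged -0.22 there, and signs turned for Kcnc4, Kcnj12 (0.02 and 0.03) and others. The count of Kcn genes higher by that size on both arrays was 5 with processed signals or offset 16 (Kcnq3 added). Of all genes, 0.566% and 0.312% were higher by that size in these settings. It was 3 with median centring (without Kcnk2), against 0.288% of all genes. Without replicate 1 or 2 the rule is looser, since only 1 array must reach 1.5-fold. By that rule 6 and 5 Kcn genes were higher, and 1 was lower each time, Kcnk3 without replicate 1 and Kcnj12 without replicate 2. The share of all genes by the looser rule was not computed.

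The median over Kcn genes was 0.0575 in the deposited table and -0.0263 and 0.00785 without replicate 1 and 2. That of Kcna to Kcnd was -0.0254 with the mean of a gene's probes, 0.105 in the deposited table and -0.0415 and -0.00937 without replicate 1 and 2, and that of Kcnj 0.142 in the deposited table and 0.131 and 0.0420 without replicate 1 and 2. Likewise Kcnm with Kcnn had -0.0617 and -0.0160, Kcnip 0.289 and 0.0317, and the neuronal list -0.0415 and 0.0426, with -0.0179 under median centring. The Kcnk median was -0.0630 with processed signals, -0.0597 with offset 16, -0.0552 with median centring, -0.0548 with no filter, -0.0576 with the mean of probes, and -0.0639 and -0.0613 without replicate 2 and 1. The partner list was at 0.0900 in the deposited table and 0.0349 and 0.0951 without replicate 1 and 2, and the smooth muscle list at 0.00862 there and at -0.0112 and -0.0437. The epithelial list was at -0.00521 with no filter, -0.208 in the deposited table, and -0.0398 and -0.00597 without replicate 1 and 2. The cause of these shifts was not tested. Of 482 values of the 44 named Kcn genes over these alternatives, 454 kept their sign. Part of that count was fixed in advance, since Aquantile and the variance model leave the ratios as they are. The sign turned in some setting for 19 of the 44 genes.

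Both RNAs of a replicate lie on 1 array and each ratio is taken within it, so the test of ratios against 0 is itself paired, and there was no further replicate block to add. With 1 array left there is no residual degree of freedom, so leaving out a replicate gives values and no calls. Signals near background limit the ratios of dim genes such as Kcnj12 and Kcnj4.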
